A study of Sus scrofa with 16 samples.

Results

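The genes described here are those of calcium handling, ion channels and gap junctions in the pig left ventricle. A gene was included if its symbol belonged to the ryanodine or IP3 receptors, the calcium and sodium pumps, the sodium-calcium exchangers, calcium, potassium, sodium or HCN channels, calsequestrins, calmodulins, calmodulin-dependent kinases or connexins, or was PLN, SLN, SRI, HRC, TRDN or STIM1. Of the 6765 genes with a single symbol on the array, 59 met the rule, and of several probe sets for 1 gene the brightest over the 16 arrays was taken. RNA came from 16 Yorkshire x Landrace swine aged 2 to 3 months, 8 after myocardial infarction (MI) and 8 sham-operated (Sham), 3 weeks from surgery. Each group held 4 females and 4 neutered males by the labels, and each animal gave 1 Affymetrix porcine array. No source used here gives the site of the sample within the ventricle or its distance from the infarct. Values are log2 signals, and every difference below is MI minus Sham on that scale.

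At each heartbeat calcium enters the muscle cell through voltage-gated channels and opens the ryanodine receptors of the sarcoplasmic reticulum, the internal calcium store. SERCA pumps, held back by the small membrane proteins phospholamban and sarcolipin, return the calcium to the store, and the sodium-calcium exchanger moves it out of the cell. Potassium channels end the action potential, and connexins join the cells so that it spreads. The measured genes covered 8 of calcium release, 7 of uptake and export, 5 calcium channel subunits and 9 of calmodulin and its kinases. The rest were 3 genes of the sodium pump beta family, 13 voltage-gated potassium channel subunits, 5 inward rectifiers, 4 calcium-activated potassium channel subunits and 5 connexins. From a list of 47 core cardiac genes of these families 28 were measured. The others were not analysed here.

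Some arrays stood apart. In 11 arrays (set A) the poly-A spike-in transcripts lay -2.45 to -1.40 relative to the hybridisation controls on the log2 scale, and in 5 arrays (set B: MI 7, MI 8, Sham 6, Sham 7 and Sham 8) -4.83 to -3.77. The labels do not mention these sets. MI 7 is labelled female, but EIF1AY, a gene of the Y chromosome, read 9.51 there, within the 9.40 to 9.96 of the 8 labelled males, against 3.00 to 3.51 in the other 7 labelled females. Control probe sets without target RNA gave single values from 3.08 to 4.99, and a gene is called above background here if its mean in either group exceeded 4.99. By that measure 46 of the 59 genes were above background and 13 were not. Heart muscle markers were high in both groups: 9 measured cardiomyocyte genes averaged 13.96 ± 0.07 in MI and 13.99 ± 0.05 in Sham animals (SD, n = 8 each).

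Between MI and Sham animals the central genes of the heart's calcium cycle, ATP2A2, PLN, RYR2, CASQ2 and SLC8A1, differed by -0.03 to 0.02, and the differences that passed lay in genes with weaker signals. Of the 59 genes 10 passed, meaning a Benjamini-Hochberg adjusted p under 0.05 from limma over all 23999 probe sets, 5 higher and 5 lower in MI. That is 16.9% of them, against 10.5% of the 23999 probe sets tested and 7.63% of the 6765 genes. Of all probe sets 5.39% were higher and 5.14% lower, and of all genes 4.12% and 3.5%. RYR3, CAMK1D, CACNG3, CAMK1 and KCNJ1 rose, and KCNIP4, KCNA6, KCNE3, RYR1 and KCNE2 fell. The median difference over the 59 genes was -0.03, against 0.00483 over all genes. The median size of the difference, regardless of sign, was 0.131 over the 59 genes and 0.105 over all genes. The samples are bulk tissue, in which fewer cells of a type and less RNA per cell cannot be told apart.

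**Figure D1:**
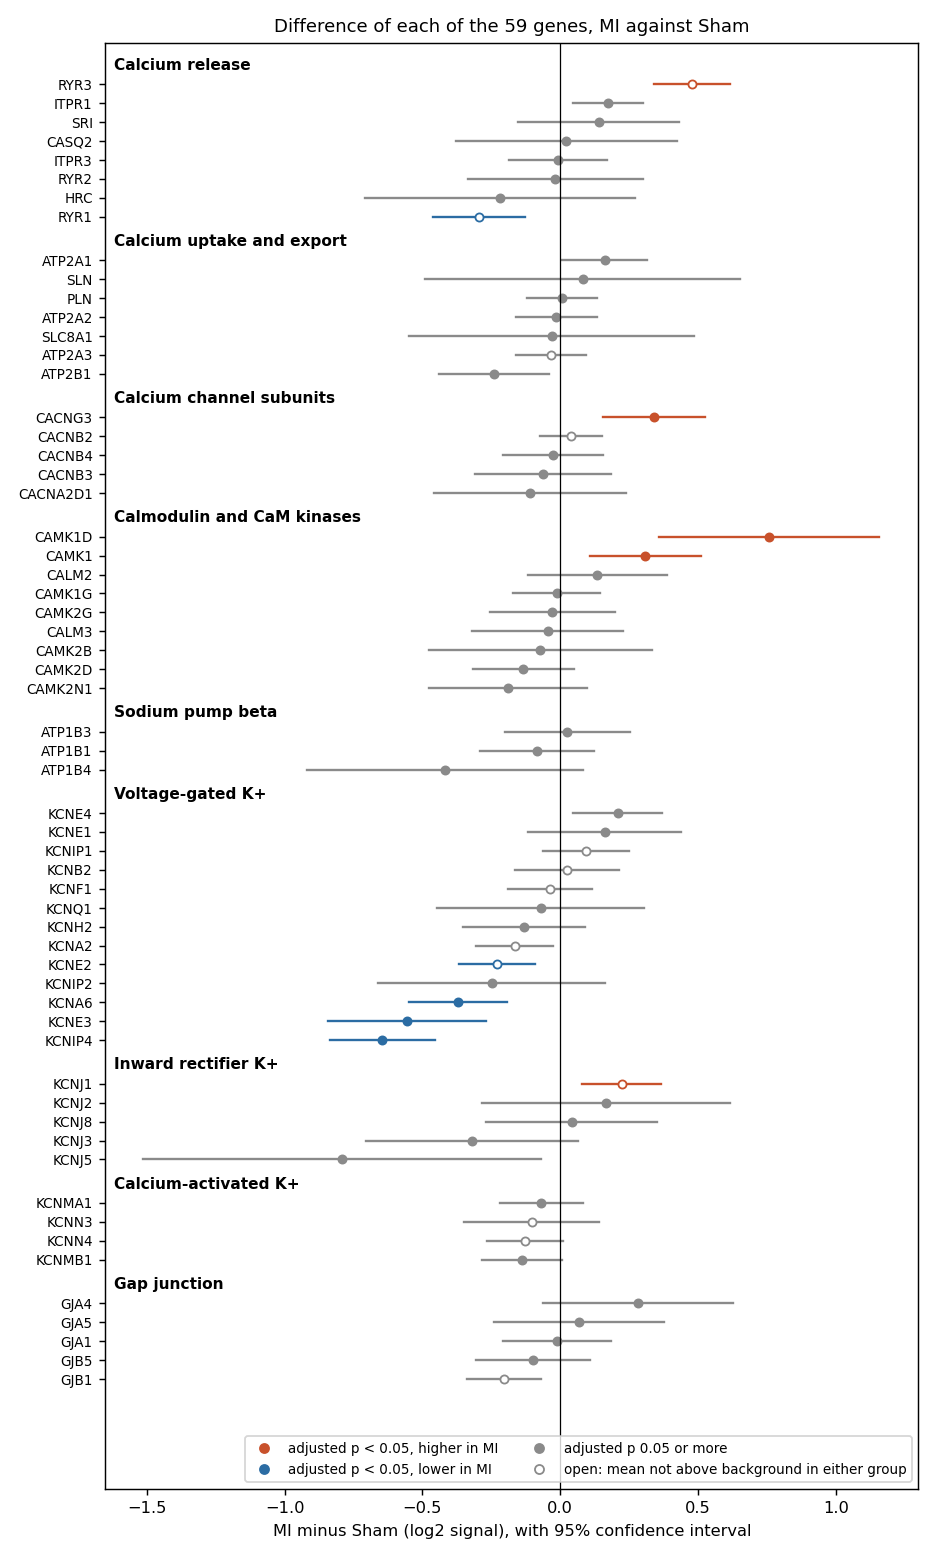
Difference in log2 signal between 8 MI and 8 Sham animals for each of the 59 genes, grouped by role, with its 95% confidence interval; coloured points have an adjusted p under 0.05, and open points have no group mean above background. The differences of PLN, ATP2A2, RYR2, CASQ2 and GJA1 lie between -0.02 and 0.02, and the 10 coloured genes lie between -0.65 and 0.76.

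Among genes of calcium uptake and export 0 of 7 passed by limma, with 2 at an unadjusted p under 0.05, which 5673 of the 23999 probe sets had. The signal of ATP2A2, which encodes the SERCA2 pump of heart muscle, ran from 13.35 to 13.52 with a median of 13.45 in Sham animals and from 13.24 to 13.79 with a median of 13.42 in MI animals. The ranges overlapped, with the highest value in MI 7, and the difference was -0.01 (95% confidence interval -0.16 to 0.13, adjusted p = 0.936). Phospholamban (PLN), the inhibitor of that pump, ran from 13.64 to 13.97 with a median of 13.86 in Sham animals and from 13.72 to 13.95 with a median of 13.82 in MI animals. The difference of 0.01 had an interval of -0.12 to 0.13 (adjusted p = 0.966). A second PLN probe set differed by -0.09 (adjusted p = 0.359), and the 3 further ATP2A2 probe sets by -0.19 to 0.06 (adjusted p from 0.0884 to 0.734).

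Sarcolipin (SLN), a related SERCA inhibitor that is abundant in atria, varied far more among animals. It was 5.98 ± 0.71 in Sham and 6.06 ± 0.38 in MI animals (mean ± SD, n = 8 each, difference 0.08, adjusted p = 0.900), and the Sham values ran from 5.13 in Sham 7 to 7.40 in Sham 2. The exchanger SLC8A1 was 7.71 ± 0.70 in Sham and 7.68 ± 0.22 in MI animals (difference -0.03, interval -0.55 to 0.49, adjusted p = 0.958). Its lowest value, 6.20, was again that of Sham 7. ATP2B1, a calcium pump of the plasma membrane, lay below the Sham mean in 8 of 8 MI animals, with a difference of -0.24 (SE 0.09, adjusted p = 0.123). The skeletal muscle pump ATP2A1 differed by 0.16 (adjusted p = 0.192) and the non-muscle pump ATP2A3 by -0.03 (adjusted p = 0.809, not above background).

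Among genes of calcium release, the cardiac receptor and its store proteins did not pass, while RYR1 and RYR3, receptor isoforms known from other tissues, did. RYR2, the cardiac ryanodine receptor, was 11.48 ± 0.41 in Sham and 11.46 ± 0.19 in MI animals, with the lowest value in Sham 7 and the highest in Sham 2. The 8 MI values lay inside the Sham range, and the difference was -0.02 (interval -0.34 to 0.30, adjusted p = 0.961). CASQ2, the calcium buffer of the store, was 11.21 ± 0.53 in Sham and 11.23 ± 0.24 in MI animals (difference 0.02, interval -0.38 to 0.42, adjusted p = 0.962). A weaker CASQ2 probe set differed by -0.29 (adjusted p = 0.685). Weaker RYR2 probe sets differed by -0.17 and -0.09 (adjusted p = 0.491 and 0.617), the latter not above background. HRC, another calcium-binding protein of the store, differed by -0.22 (adjusted p = 0.637), and SRI, sorcin, which binds the ryanodine receptor, by 0.14 (adjusted p = 0.607). ITPR1, an IP3 receptor, was above the Sham mean in 8 of 8 MI animals (0.17, SE 0.06, adjusted p = 0.0769), and ITPR3, another, differed by -0.01 (adjusted p = 0.971). A second, weaker ITPR3 probe set rose by 0.33 (adjusted p = 0.00663), with all 8 MI values above all 8 Sham values.

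RYR3, a widely expressed isoform, ran from 3.70 to 4.00 with a median of 3.93 in Sham animals and from 4.28 to 4.57 with a median of 4.36 in MI animals. All 8 MI values exceeded all 8 Sham values, a difference of 0.48 (SE 0.06, adjusted p = 0.000311). Such a separation was seen in 2 of the 59 genes, RYR3 and KCNIP4, against 2.96% of all probe sets and 1.83% of all genes. RYR1, the skeletal muscle isoform, ran from 4.30 to 4.89 with a median of 4.52 in Sham animals and from 4.16 to 4.56 with a median of 4.26 in MI animals. It fell, a difference of -0.29 (SE 0.08, adjusted p = 0.0259), with 7 of 8 MI animals below the lowest Sham animal. MI 4 was the exception. Every RYR3 and RYR1 value lay within the range of the controls without target RNA, so no fold change is given. The 3 other RYR3 probe sets differed by 0.04 to 0.18 and did not pass (adjusted p from 0.188 to 0.864).

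Among calcium channel subunits 1 of 5 passed. CACNG3, which belongs to the gamma subunit family and is known from brain, ran from 4.81 to 5.28 with a median of 5.06 in Sham animals and from 5.10 to 5.66 with a median of 5.40 in MI animals. It rose in MI, a difference of 0.34 (SE 0.09, adjusted p = 0.0203, 1.27-fold), with 6 of 8 MI animals above every Sham animal. CACNA2D1, the alpha-2/delta subunit that accompanies the cardiac L-type channel, was 9.83 ± 0.26 in Sham and 9.72 ± 0.40 in MI animals (difference -0.11, interval -0.46 to 0.24, adjusted p = 0.753). The beta subunits CACNB2, CACNB3 and CACNB4 differed by -0.06 to 0.04 (adjusted p from 0.715 to 0.898). CACNB2 was not above background.

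Calmodulin carries the calcium signal to a family of kinases, and here 2 CaM kinase I genes rose while 0 of the 3 measured CaM kinase II genes passed. CAMK1D, a CaM kinase I isoform, ran from 4.77 to 6.36 with a median of 5.61 in Sham animals and from 6.15 to 6.59 with a median of 6.40 in MI animals. It rose, a difference of 0.76 (SE 0.19, adjusted p = 0.0170, 1.69-fold), and 8 of 8 MI animals exceeded the Sham mean. The MI values were tight (SD 0.16) and the Sham values spread (SD 0.54): Sham 7 and Sham 8, at 6.27 and 6.36, reached the MI range and Sham 4 was lowest at 4.77. CAMK1 ran from 7.33 to 7.82 with a median of 7.65 in Sham animals and from 7.68 to 8.24 with a median of 7.85 in MI animals. Its increase of 0.31 (SE 0.09, 1.24-fold) passed narrowly (adjusted p = 0.0497), with 4 of 8 MI animals above every Sham animal. CAMK1G, another isoform, differed by -0.01 (adjusted p = 0.944).

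CAMK2D, the main CaM kinase II gene of the heart, was 12.72 ± 0.13 in Sham and 12.59 ± 0.19 in MI animals (difference -0.13, interval -0.32 to 0.05, adjusted p = 0.385). CAMK2G and CAMK2B differed by -0.03 and -0.07 (adjusted p = 0.913 and 0.872), and their inhibitor CAMK2N1 by -0.19 (adjusted p = 0.443). The calmodulin genes CALM2 and CALM3 differed by 0.13 and -0.05 (adjusted p = 0.554 and 0.881). Of the 5 further CALM3 probe sets 1, with a weaker signal, rose from 5.01 ± 0.20 to 5.63 ± 0.14 (adjusted p = 0.000153). The other 4 did not pass, with differences from -0.12 to 0.19. Probe sets of a gene disagreed in this way for 4 genes in all: CALM3, ITPR3, KCNE1 and KCNQ1 each had 1 passing probe set beside a brighter one that did not pass. The reverse held for RYR3, KCNE3 and KCNE2, whose brightest probe set passed while the weaker ones did not. The other passing genes had 1 probe set each, so no passing gene had a second probe set that passed.

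**Figure D2:**
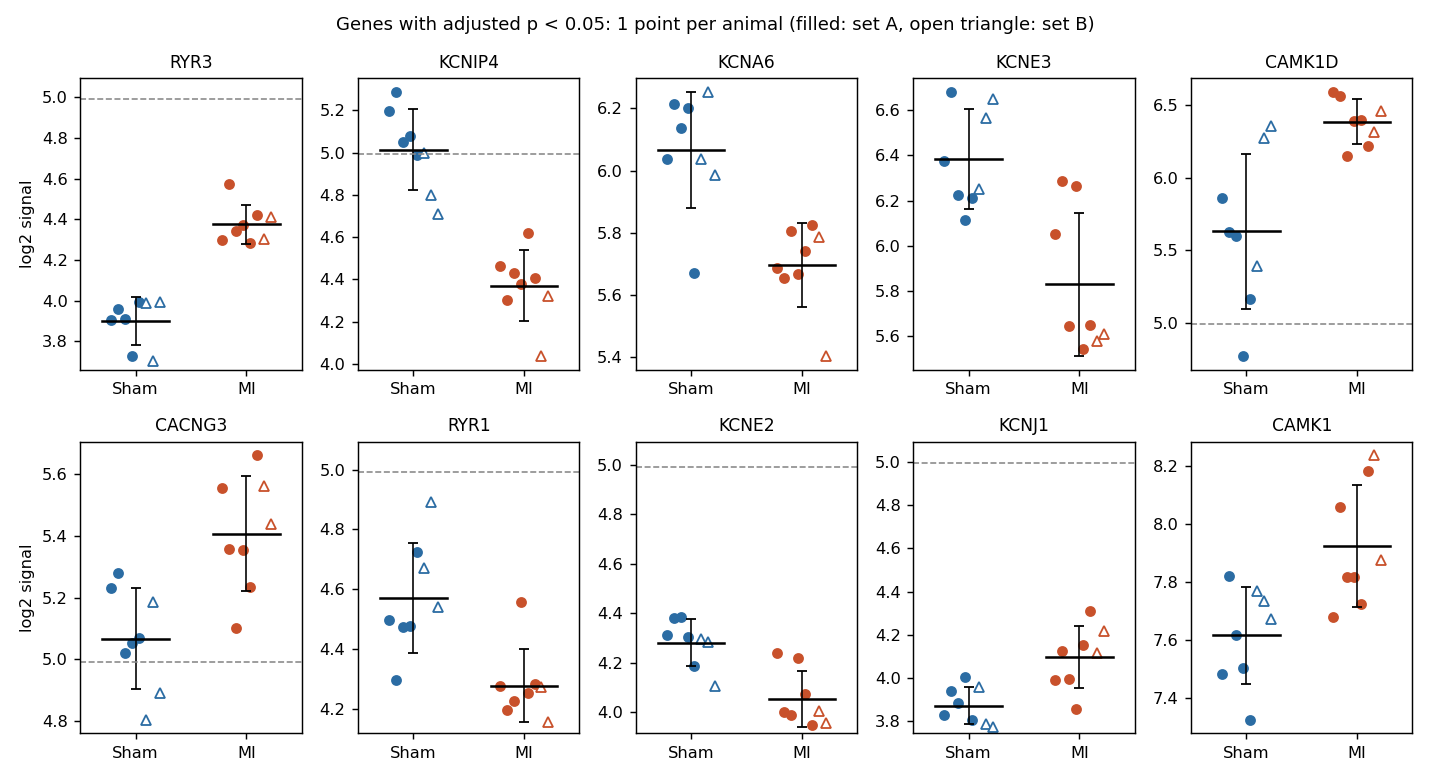
Log2 signal of each animal for the 10 genes with an adjusted p under 0.05; circles are set A arrays, open triangles set B arrays, bars the mean ± SD of 8 animals, and the dashed line the highest control without target RNA (4.99). RYR3 and KCNIP4 show no overlap between groups, and RYR3, RYR1, KCNE2 and KCNJ1 lie wholly below the line.

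Of 13 voltage-gated potassium channel subunits 4 passed, all lower in MI, where 3.5% of all genes were lower. KCNIP4 and KCNE2, which are 2 of the 4, have means below 4.99, and 22.9% of all genes with such means passed in either direction. The difference from the other classes was not tested. KCNIP4, a calcium-binding subunit of Kv4 channels known from neurons, ran from 4.71 to 5.29 with a median of 5.02 in Sham animals and from 4.04 to 4.62 with a median of 4.39 in MI animals. All 8 MI animals lay below all 8 Sham animals, a difference of -0.65 (SE 0.09, adjusted p = 0.000352). The Sham mean of 5.01 was just above background and the MI values were all below it, so the signal of Sham animals was itself close to the floor. KCNA6, the Kv1.6 channel, ran from 5.67 to 6.25 with a median of 6.09 in Sham animals and from 5.40 to 5.82 with a median of 5.71 in MI animals. It fell in MI, a difference of -0.37 (SE 0.08, adjusted p = 0.00979, 1.29-fold), and Sham 5 was the only Sham animal inside the MI range.

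KCNE3, a small accessory subunit, ran from 6.11 to 6.68 with a median of 6.31 in Sham and from 5.54 to 6.29 with a median of 5.65 in MI animals. Its difference was -0.56 (SE 0.13, adjusted p = 0.0154, 1.47-fold lower in MI). The MI animals split: 5 lay between 5.54 and 5.65, while MI 1, MI 2 and MI 4 read 6.05, 6.29 and 6.26. The other KCNE3 probe set differed by -0.04 (adjusted p = 0.885). KCNE2, another accessory subunit, ran from 4.11 to 4.38 with a median of 4.30 in Sham and from 3.95 to 4.24 with a median of 4.00 in MI animals. It fell by 0.23 (adjusted p = 0.0339) with all values below background, and its second probe set differed by 0.11 (adjusted p = 0.336).

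The subunits of the cardiac repolarising currents did not pass. KCNQ1 and KCNE1, the pair of the slow delayed rectifier, differed by -0.07 and 0.16 (adjusted p = 0.863 and 0.512), and KCNH2, the hERG channel of the rapid one, by -0.13 (adjusted p = 0.504). KCNIP2, the subunit that supports the transient outward current, was 10.20 ± 0.42 in Sham and 9.95 ± 0.40 in MI animals (difference -0.25, interval -0.66 to 0.16, adjusted p = 0.492). KCNA2, KCNB2, KCNF1, KCNIP1 and KCNE4 differed by -0.16 to 0.21 (adjusted p from 0.10 to 0.911), and all but KCNE4 were not above background. A second, weaker probe set fell for KCNE1 (-0.29, adjusted p = 0.0251) and for KCNQ1 (-0.30, adjusted p = 0.0186).

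Of 5 inward rectifiers 1 passed. KCNJ1, known as a kidney channel, ran from 3.77 to 4.00 with a median of 3.86 in Sham animals and from 3.86 to 4.31 with a median of 4.12 in MI animals. It rose with all values below background (0.22, SE 0.07, adjusted p = 0.0462). KCNJ5, which with KCNJ3 forms the acetylcholine-activated channel of atria and pacemaker cells, ran from 8.30 to 10.38 with a median of 9.35 in Sham animals and from 7.46 to 9.98 with a median of 8.42 in MI animals. The difference of -0.79 (interval -1.52 to -0.07) was the largest in size among the 59 genes, but the SD was 0.87 in MI and 0.68 in Sham animals and the gene did not pass (adjusted p = 0.165). In 7 of 8 MI animals it was below the Sham mean. A second, weaker KCNJ5 probe set differed by -0.04 (adjusted p = 0.869). KCNJ3 was below the Sham mean in 8 of 8 MI animals (-0.32, adjusted p = 0.313). KCNJ2, the Kir2.1 channel that sets the resting potential, differed by 0.17 (adjusted p = 0.706), and KCNJ8, the pore of vascular ATP-sensitive channels, by 0.04 (adjusted p = 0.906).

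Calcium-activated potassium channels (KCNMA1, KCNMB1, KCNN3 and KCNN4) gave 0 passing genes of 4 by limma (unadjusted p under 0.05 in 0), with differences from -0.14 to -0.07. KCNN3 and KCNN4 were not above background. Weaker probe sets of KCNMB1, KCNMA1 and KCNN3 differed the other way, by 0.19, 0.05 and 0.04, without passing (adjusted p = 0.372, 0.728 and 0.771). Those of KCNMA1 and KCNN3 were not above background. The genes of the sodium pump beta family gave 0 of 3 (unadjusted p under 0.05 in 0). ATP1B1, the beta-1 subunit of heart muscle, differed by -0.08 (interval -0.29 to 0.12, adjusted p = 0.671). ATP1B3 differed by 0.03 and ATP1B4 by -0.42 (adjusted p = 0.922 and 0.311). Connexins gave 0 of 5 (1). GJA1, the main connexin of the working myocardium, ran from 12.37 to 12.72 with a median of 12.49 in Sham animals and from 12.16 to 12.92 with a median of 12.51 in MI animals. The difference was -0.01 (interval -0.21 to 0.18, adjusted p = 0.961), with both the lowest and the highest value in MI animals. GJA5 and GJA4, connexins of conduction tissue and vessels, differed by 0.07 and 0.28 (adjusted p = 0.839 and 0.323), and GJB5 by -0.10 (adjusted p = 0.609). GJB1, a connexin of liver and nerve, was below the Sham mean in 8 of 8 MI animals and just missed the threshold (-0.20, adjusted p = 0.0506, not above background).

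**Figure D3:**
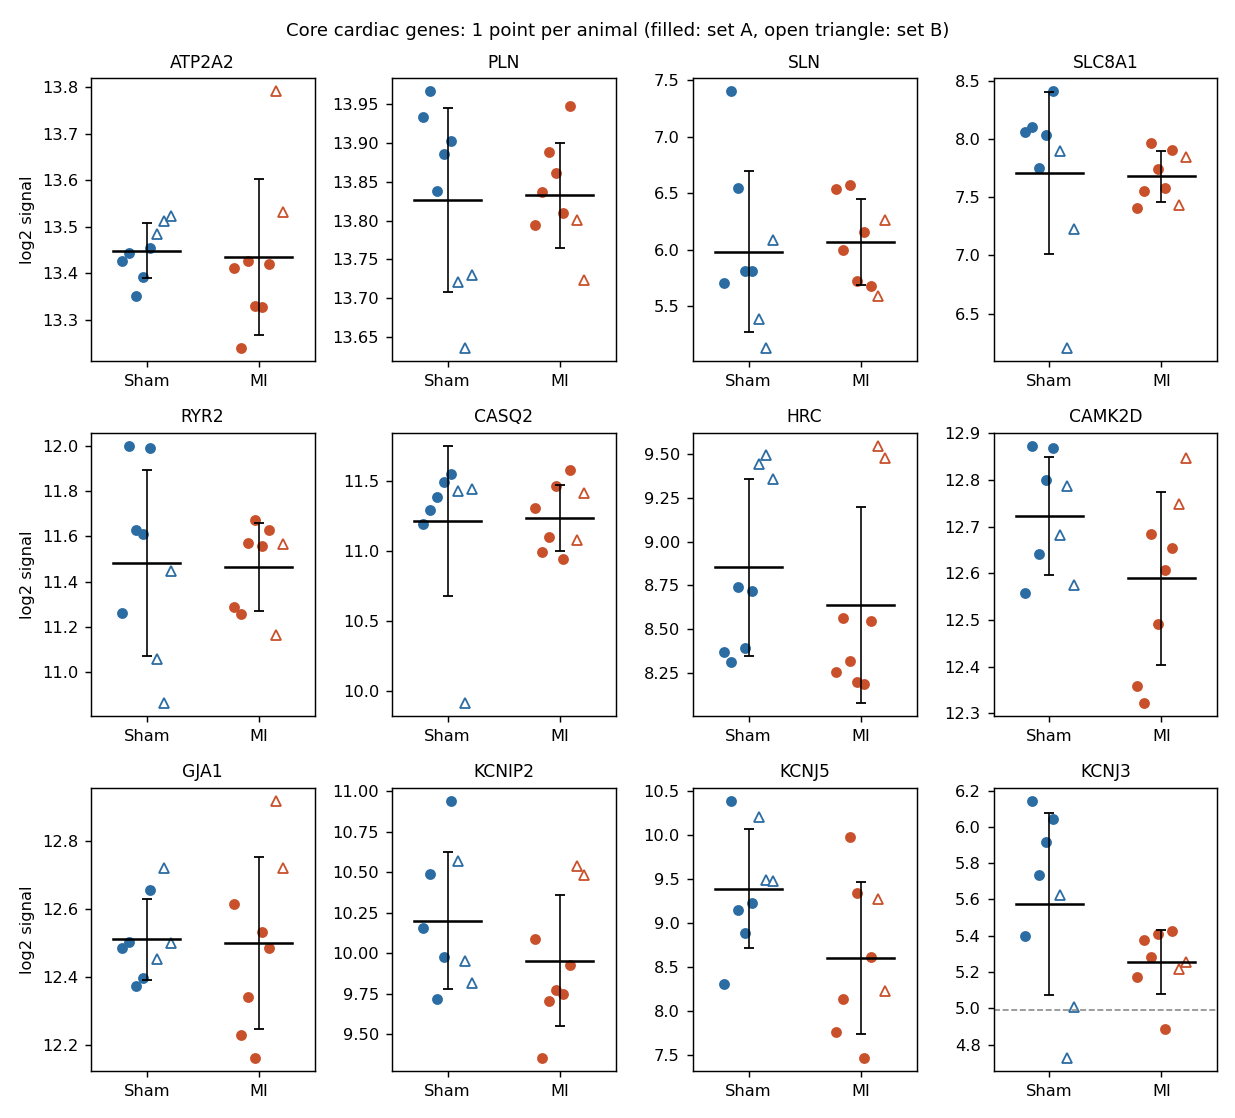
Log2 signal of each animal for 12 genes of the cardiac calcium cycle, repolarisation and cell contact; circles are set A arrays, open triangles set B arrays, and bars the mean ± SD of 8 animals. None of the 12 has an adjusted p under 0.05, HRC splits by set rather than by group, and the lowest CASQ2 and SLC8A1 values belong to Sham 7.

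Which genes passed went with the brightness of their probe sets. The bands of mean signal used here were set after seeing the data. Among the 14 genes with a mean above 9, among them PLN, ATP2A2, CAMK2D, GJA1, RYR2 and CASQ2, 0 passed by limma, against 1.23% of all genes in that band. Between 7 and 9, 1 of 13 passed (all genes 3.11%), and between 4.99 and 7, 4 of 18 (all genes 12.7%). Of the 14 genes below 4.99, 5 passed (all genes 22.9%). Passing was thus commoner at low signal across the whole array as well as among these genes. The cause was not tested. With only the 16000 probe sets of highest mean over all animals in the test, which hold 45 of the 59 genes, 4 passed (all probe sets 4.09%): CAMK1D, CACNG3, KCNA6 and KCNE3. KCNIP4, with a mean of 4.69, was not among those tested.

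**Figure D4:**
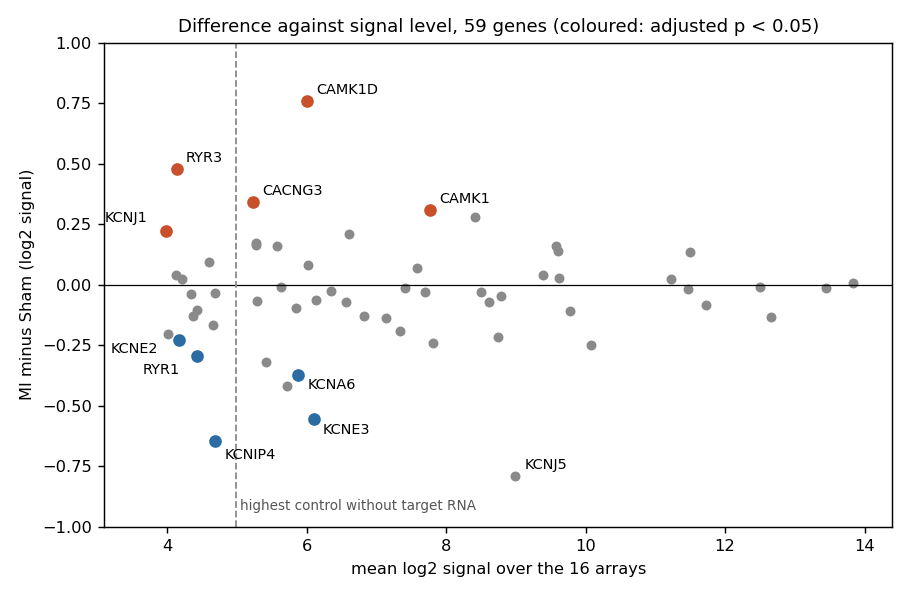
Difference in log2 signal (MI minus Sham) against the mean log2 signal over 16 arrays for the 59 genes; coloured points have an adjusted p under 0.05 and the dashed line is the highest control without target RNA. The 10 coloured genes have means up to 7.77, and the 21 genes brighter than that are all grey.

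Within each sex the 10 passing genes kept the direction of the pooled difference. RYR3 rose by 0.52 in females and 0.44 in males (adjusted p = 0.00796 and 0.0172), and KCNIP4 fell by 0.73 and 0.56 (adjusted p = 0.00711 and 0.0242). These were the 2 genes that passed within females and within males, where 2.85% and 3.4% of all probe sets passed. CAMK1D differed by 0.76 in females and 0.75 in males without passing in either. Without MI 7 and with the set as a block KCNIP4, RYR3 and RYR1 (-0.45, adjusted p = 0.0489) passed in females (all probe sets 2.77%), and KCNIP4 and RYR3 in males (all probe sets 2.6%). By limma 0 of the 59 genes passed for the interaction of group and sex (unadjusted p under 0.05 in 1, and in 1363 of the 23999 probe sets; all probe sets passing 0%). For female against male 0 passed as well (1, and 746 of the probe sets; all probe sets passing 0.0583%).

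The spike-in sets separated other genes. Between set B and set A, with group and sex in the fit, 10 of the 59 genes passed, against 17.6% of all probe sets. HRC averaged 8.34 and 8.51 in the set A arrays of MI and Sham animals and 9.51 and 9.43 in set B, a set difference of 1.03 (SE 0.09, adjusted p = 9.34e-06) against -0.22 between the groups. CAMK2B, KCNQ1, CALM3, CAMK2G and KCNN3 were also higher in set B, by 0.33 to 0.73. KCNJ2, KCNJ3, KCNE1 and KCNIP4 were lower there, with differences from -0.63 to -0.27. CAMK2B and KCNN3 lie outside the naming rule and were chosen after their values were seen. KCNIP4 was the 1 gene that passed both between the sets and between MI and Sham.

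**Figure D5:**
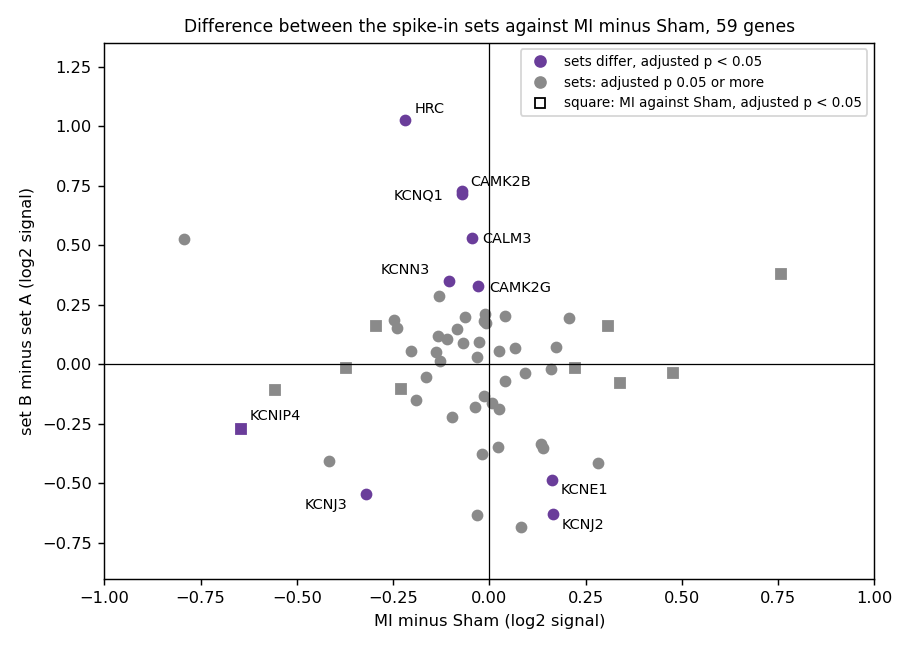
Difference between spike-in sets (set B minus set A, log2 signal) against the difference between groups (MI minus Sham, log2 signal) for the 59 genes; purple points differ between sets and squares differ between groups, both at an adjusted p under 0.05. HRC, at 1.03 between sets and -0.22 between groups, lies farthest from the horizontal axis, and KCNIP4 is the only purple square.

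With the set as a block all 10 genes passed (all probe sets 12.9%), and KCNE4 joined them (0.23, adjusted p = 0.0299; outside the naming rule). In set A alone (all probe sets 9.68%), RYR3 (0.50, adjusted p = 0.00493), KCNIP4 (-0.71, 0.00203), KCNA6 (-0.36, 0.0310) and CAMK1D (1.07, 0.00532) passed. CACNG3, CAMK1, KCNE3, RYR1, KCNE2 and KCNJ1 did not there (adjusted p from 0.0994 to 0.270). Set B alone, with 5 arrays, was fitted with group only, unlike set A. By the labels it held 2 female and 0 male MI animals against 1 female and 2 male Sham animals, so group and sex were unbalanced. There 0 of the 59 passed by limma (unadjusted p under 0.05 in 10, and in 2643 of the 23999 probe sets, with 0.00417% of all probe sets passing). In set B the 10 genes kept their signs, with RYR3 at 0.46, KCNIP4 at -0.66 and CAMK1D at 0.38. Without MI 7 and with the set as a block 7 of the 10 passed (all probe sets 11.5%), while CACNG3, CAMK1 and KCNJ1 did not (adjusted p from 0.0523 to 0.0790). RYR3, KCNIP4, KCNA6, KCNE3, CAMK1D and CACNG3 passed whichever single animal was left out. CAMK1 did not pass without any 1 of 13 animals, KCNJ1 without any 1 of 14, KCNE2 without any 1 of 11, and RYR1 without MI 3, MI 5, Sham 5 or Sham 6 (adjusted p up to 0.0978, 0.0883, 0.0693 and 0.0554 in that order).

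Several cardiac genes that did not pass over all animals pointed in opposite directions in the sets. In set A, KCNJ3 (-0.61, adjusted p = 0.0238), CAMK2D (-0.29, 0.0402) and KCNH2 (-0.26, 0.0407) fell in MI. SLC8A1 (-0.43, adjusted p = 0.0518), KCNIP2 (-0.50, 0.179) and RYR2 (-0.27, 0.199) did not pass there. In set B, fitted with group only, the same 6 genes differed by 0.12, 0.12, 0.36, 0.53, 0.40 and 0.24 in that order. None passed there (adjusted p from 0.433 to 0.907). Tested directly, the difference between the sets in MI minus Sham passed for 0 of the 59 genes by limma (unadjusted p under 0.05 in 12, and in 2590 of the 23999 probe sets; all probe sets passing 0.00833%). The lowest adjusted p was that of KCNH2 (0.197), whose MI minus Sham difference was 0.59 higher in set B (interval 0.28 to 0.90).

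Sham 7, a set B array, held the extreme value of several calcium genes among Sham animals. CASQ2 read 9.92 there and 11.19 to 11.55 in the other 7 Sham animals, and SLC8A1 read 6.20 against 7.23 to 8.41. RYR2, SLN and KCNJ3 were also lowest in Sham 7 (10.86, 5.13 and 4.73), while GJA5 was highest (8.17 against 7.34 to 7.61). In the same animal the mean of 9 endothelial markers was 9.16, against 7.99 to 8.53 in the other Sham animals. The mean of 7 smooth muscle and pericyte markers was 10.46 against 9.73 to 10.09, and the mean of 9 cardiomyocyte markers 14.06 against 13.90 to 14.04. Their part in these values was not tested. Without Sham 7 the MI minus Sham difference of SLC8A1 was -0.26 (adjusted p = 0.268), of CASQ2 -0.16 (0.390) and of KCNJ3 -0.44 (0.0852).

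Partner proteins outside these families were examined as a list. Of 84 listed partners (ryanodine receptor and junction proteins, phosphatases, protein kinase A and its anchors, store-operated and mitochondrial calcium proteins, ankyrins and desmosomes) 48 were measured, and 0 passed by limma (unadjusted p under 0.05 in 1), against 7.63% of all genes and 10.5% of all probe sets. The partners were not matched to all genes by signal. Many had means above 7, where 3.11% of all genes passed between 7 and 9 and 1.23% above 9. The median difference of the partners was 0.01. FKBP1A and FKBP1B, which bind ryanodine receptors, differed by 0.22 and 0.30 (adjusted p = 0.126 and 0.227). TJP1, a scaffold at cell contacts, differed by -0.15 and ADRB1, the main cardiac adrenergic receptor, by -0.12 (adjusted p = 0.274 and 0.298). TJP1 was not above background.

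Markers of other cells that could carry these transcripts moved in part. The mean over the measured cardiomyocyte genes (9 of 12 listed) ran from 13.87 to 14.05 in MI and 13.90 to 14.06 in Sham animals (difference -0.03, exact permutation test, two-sided, p = 0.326). Nerve and Schwann cell markers (4 of 8) ran from 6.37 to 6.68 in MI and 6.08 to 6.71 in Sham animals (exact p = 0.759). Of these 4, GFAP, a glial filament gene, rose by 0.27 (adjusted p = 0.0468) and exceeded the Sham mean in 8 of 8 MI animals. SOX10 differed by 0.12, UCHL1 by -0.11 and S100B by -0.18 without passing (adjusted p = 0.428, 0.760 and 0.551). The part of this list in the differences of KCNIP4 and CACNG3 was not tested. The means of skeletal muscle markers (6 of 10, of which RYR1 and ATP2A1 are among the 59 genes and 2 were above background) ran from 4.66 to 4.93 in MI and 4.68 to 4.88 in Sham animals (exact p = 0.714), and 1 of the 6, MYH2, rose and 1, RYR1, fell. Macrophage and monocyte markers (5 of 8) were higher in MI by 0.31 (7.96 to 8.67 in MI and 7.82 to 8.39 in Sham animals; exact p = 0.0106, 0.0387 after adjustment over 11 lists). Adipocyte markers (4 of 6) were higher by 0.32 (6.91 to 7.36 in MI and 6.47 to 6.96 in Sham animals; exact p = 0.00155, adjusted 0.0171) and erythroid markers (4 of 4) by 0.62 (6.41 to 7.82 in MI and 6.26 to 6.78 in Sham animals; exact p = 0.00761, adjusted 0.0387). In these 3 lists 1 of 5 (CD14), 2 of 4 (PPARG and ADIPOQ) and 2 of 4 genes (HBM and AHSP) passed, all upward. ADIPOQ was not above background. LEP of the adipocyte list (-0.10) and HBB of the erythroid list (-0.06) differed the other way without passing (adjusted p = 0.539 and 0.817). The MI minus Sham differences of the 3 lists in set A and set B were 0.44 and -0.02, 0.37 and 0.19, and 0.63 and 0.62. These 3 lists moved in the same comparison as CAMK1D, CAMK1, KCNIP4 and the other passing genes. Their part in those differences was not tested. The lists of atrial, fibroblast, smooth muscle, endothelial and T and NK cell markers had exact p from 0.206 to 0.667, and conduction system markers were not analysed here. In the T and NK cell list 4 of 7 genes rose and 1 fell.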

How the data were processed

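Per the labels, RNA of crushed frozen myocardium was isolated by Trizol and a column step, and biotin-labelled cRNA was hybridised to Affymetrix porcine arrays. The authors deposited log2 signals, judged from their range of 2.87 to 14.92 and equal medians (6.24) on all arrays. Summary and normalization methods: not given in the sources used here. Deposited values were taken unchanged. Of 24123 probe sets 124 controls were left out. Of the other 23999, 10069 carried 1 gene symbol, 198 several and 13732 none. Symbols came from the platform annotation, and 55 of the 59 genes matched RefSeq (Sscrofa11.1) by Entrez identifier, all with the same symbol.

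R 4.3.3 with limma 3.58.1 fitted 1 coefficient per cell of group and sex to all 23999 probe sets (12 residual and 3.28 prior degrees of freedom). Tests were two-sided, and p-values were adjusted by Benjamini-Hochberg over all probe sets at 0.05. Animals are the replicates. The number of arrays limits the precision. On simulated data with 100 probe sets changed by 0.5 and 100 by 1, MI against Sham recovered 59 and 98 of them among 23999. Another 13 unchanged probe sets were called. The simulation had independent noise and changed far fewer probe sets than the 2527 that passed in the data. Its recovery therefore does not carry over directly to this comparison. Marker lists were compared by exact permutation of the animals. Animal numbers in the labels were not treated as pairs in the main fit.

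The genes, lists and naming rule were chosen with earlier results of these data known. Named were the passing genes, the 12 with the lowest p, the measured core cardiac genes, the 4 with the largest Sham SD and the 4 brightest. Alternatives were group without sex, the animal number as a block, quantile normalization, median centring, the 16000 brightest probe sets, an offset of 32, a robust intensity trend, array weights, each animal left out, the spike-in set as a block, set A alone, MI 7 left out with that block, and the mean of a gene's probe sets. Set B alone, the set comparisons and the test above background were added after seeing the data. Set B alone was fitted with group and no sex term.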

Additional observations from a re-analysis of the deposited data

Results flagged for a closer look

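Among the 39 named genes, each with 8 Sham and 8 MI animals, 9 of 78 groups held 1 animal whose gap to its nearest neighbour exceeded Dixon's 95% critical share of the group's range. For independent groups of normally distributed values about 5% would be expected. The 78 groups share the same 16 arrays, and the named genes were chosen in part by p and by Sham SD. The count therefore cannot show an excess, and no share over all probe sets is given.

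CASQ2 in Sham 7 read 9.92, the lowest of its group, next to 11.19 (gap share 0.784). GJA5 in the same animal read 8.17, the highest of its group, next to 7.61 (gap share 0.675). Sham 7 was also lowest for RYR2, SLN, SLC8A1 and KCNJ3, as given above.

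RYR1 in MI 4 read 4.56, the highest of its group, next to 4.28 (gap share 0.688). RYR3 in MI 2 read 4.57, the highest of its group, next to 4.42 (gap share 0.531). KCNA6 in MI 8 read 5.40, the lowest of its group, next to 5.65 (gap share 0.598). KCNA6 in Sham 5 read 5.67, the lowest of its group, next to 5.99 (gap share 0.544). ITPR1 in Sham 4 read 4.93, the lowest of its group, next to 5.16 (gap share 0.606). ATP1B1 in MI 7 read 12.14, the highest of its group, next to 11.75 (gap share 0.627). KCNJ3 in MI 5 read 4.88, the lowest of its group, next to 5.17 (gap share 0.532).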

How the results depend on the processing

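Of the 59 genes 10 passed between MI and Sham, and 7 to 11 did so under the settings listed under processing, apart from those named next. Of them 4 passed when the 16000 brightest probe sets were tested alone (45 of the genes; all probe sets 654), and 5 when the probe sets above background were (46 of the genes; all probe sets 993), where KCNIP4 entered through its Sham mean alone. In set B alone 0 passed by limma (1 of all probe sets). Leaving out 1 animal gave 6 to 10 genes and 2045 to 2537 of all probe sets, the 6 without MI 3. Within females and within males 2 genes passed, and 0 did among the brightest probe sets. Correlations of same-numbered deviations ran from -0.07 to 0.46 (over 0.1 in 4 of 8), which does not settle whether the animal numbers pair the samples. With the number as a replicate block 11 genes passed: ATP2B1 (-0.24, adjusted p = 0.0230) and KCNE4 were gained, KCNJ1 was lost, and 2645 of all probe sets passed. Over 1157 values of the 39 named genes under the alternatives, 70 lost a call, 11 gained one and 0 calls turned sign; 80 differences changed sign without passing on either side, most often those of PLN and CASQ2. Quantile normalization and median centring changed 0 of the 10 calls. Arrays limit the low end: 13 of the 59 genes were not above background.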
